A study of Rattus norvegicus with 4 samples.

Results

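Snap25, Syn2, Rab3a and Syt8, 4 genes of synaptic vesicles and regulated exocytosis, were followed through 4 rat arrays. All probe sets whose gene symbol in the platform's probe table was exactly 1 of these names were taken, with no use of measured values. This gave 9 probe sets, 4 for Snap25, 3 for Syn2, 1 for Rab3a and 1 for Syt8, out of 1263 probe sets other than controls. Total RNA came from rat samples labelled brain and adrenal medulla. The groups were undigested at day 1, digested at day 1, undigested at day 7 and digested at day 7 of a time course, with 1 array per group. What was digested, and the strain and age of the animals, are not given in the sources used here, and no purpose of the study is stated there. Each group being a single array, no spread between replicates was available for any difference.

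Neurons and the chromaffin cells of the adrenal medulla release transmitters and hormones by regulated exocytosis, in which vesicles or dense-core granules fuse with the plasma membrane when calcium enters the cell. Fusion is driven by SNARE proteins, among them SNAP-25 on the plasma membrane, the product of Snap25, which pairs with syntaxin and with synaptobrevin on the vesicle. Synapsins, of which Syn2 codes for synapsin II, coat synaptic vesicles and hold a reserve of them near the release site. The GTPase of Rab3a sits on vesicles and granules and regulates a late step before fusion. Synaptotagmins are vesicle proteins best known for the calcium sensor Syt1, and Syt8 is a less studied member of that family.

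The deposited values were linear signal intensities. Signals were scaled so that all arrays shared 1 median, controls aside, and lower values were set to a floor of 51.8. In all, 632 probe sets whose mean lay at or above the median of all were analysed, and all 9 probe sets of the 4 genes were among them, with Syt8 nearest to the floor at a lowest signal of 362. Over the 632, the median log2 difference for digested over undigested was 0.12 at day 1 and -0.05 at day 7, and that for day 7 over day 1 was 0.17 in undigested and 0.04 in digested samples. In the values as deposited these medians lay -0.13, 0.14, -0.23 and 0.04 away from there. Quantile normalisation and cyclic loess moved the first by -0.13 and -0.14 and the third by -0.17 each. Beta-actin, whose 3′ to 5′ signal ratio rises as the RNA is less complete, had a ratio of 2.66 on the undigested day 7 array against 1.35 to 1.48 on the other arrays. The same ratio was 1.18 there against 1.01 to 1.10 for GAPDH, and 1.40 against 1.05 to 1.31 for hexokinase. The 9 probe sets of bacterial transcripts added at hybridisation read low on the digested day 7 array, with a median log2 of -1.32 against the mean of the other 3 arrays. Of the chromaffin cell markers, Th, Ddc, Dbh and Penk passed the filter on dim probe sets. The vesicular monoamine transporter gene Slc18a2 did not, and was at the floor on the undigested day 1 array. Of the 9 glial markers of brain on the array, Glul, Cnp, Mag and Slc1a3 passed it, while Mbp, Mog, S100b, Sox10 and Slc1a2 did not.

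Snap25 was lower at day 7 than at day 1 by all 4 of its probe sets, in undigested and in digested samples. Its probe set AB003991_g_at had scaled signals of 96677 in the undigested and 102213 in the digested sample at day 1, and of 56595 and 61000 at day 7. U56261_s_at read 43148 and 49091 at day 1 and 26929 and 28564 at day 7. AB003991_at read 32659 and 38870 at day 1 and 20030 and 25393 at day 7. For each of these probe sets both day 7 signals lay below both day 1 signals, with no overlap between the days. How many of all 632 had no such overlap was not counted. By the looser criterion of a lower day 7 signal in both states, 24.4% passed. AB003992_s_at read 14988 and 16485 at day 1 and 7297 and 8825 at day 7. It had the largest day difference of the Snap25 probe sets in each state, 2.05-fold lower in undigested and 1.87-fold lower in digested samples. The suffix that AB003992_s_at and U56261_s_at share marks probe sets that can detect several related transcripts.

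The 4 Snap25 probe sets differed little among themselves. Their mean log2 difference for day 7 over day 1 was -0.80 ± 0.16 (SD over 4 probe sets) in undigested samples, or 1.74-fold lower, and -0.76 ± 0.12 in digested samples, or 1.69-fold lower. Probe sets of a gene read the same RNA and are not replicates of a condition. For comparison, the pooled SD between probe sets of a gene, over 125 genes with several analysed probe sets, was 0.52 for the undigested and 0.41 for the digested day difference. By digestion Snap25 differed less: its mean log2 difference for digested over undigested was 0.16 ± 0.07 at day 1 and 0.20 ± 0.13 at day 7, with 4 of 4 probe sets higher in the digested sample at both days. Of all 632 analysed probe sets, 30.9% were higher in the digested sample at both days, and 450 were higher at day 1. The day 1 differences of AB003991_g_at (0.08) and AB003992_s_at (0.14) turned to zero or below under cyclic loess, and that of AB003991_g_at also in the values as deposited (-0.05). Fewer cells that express a gene and less of its RNA per cell cannot be told apart in such bulk samples.

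**Figure D1:**
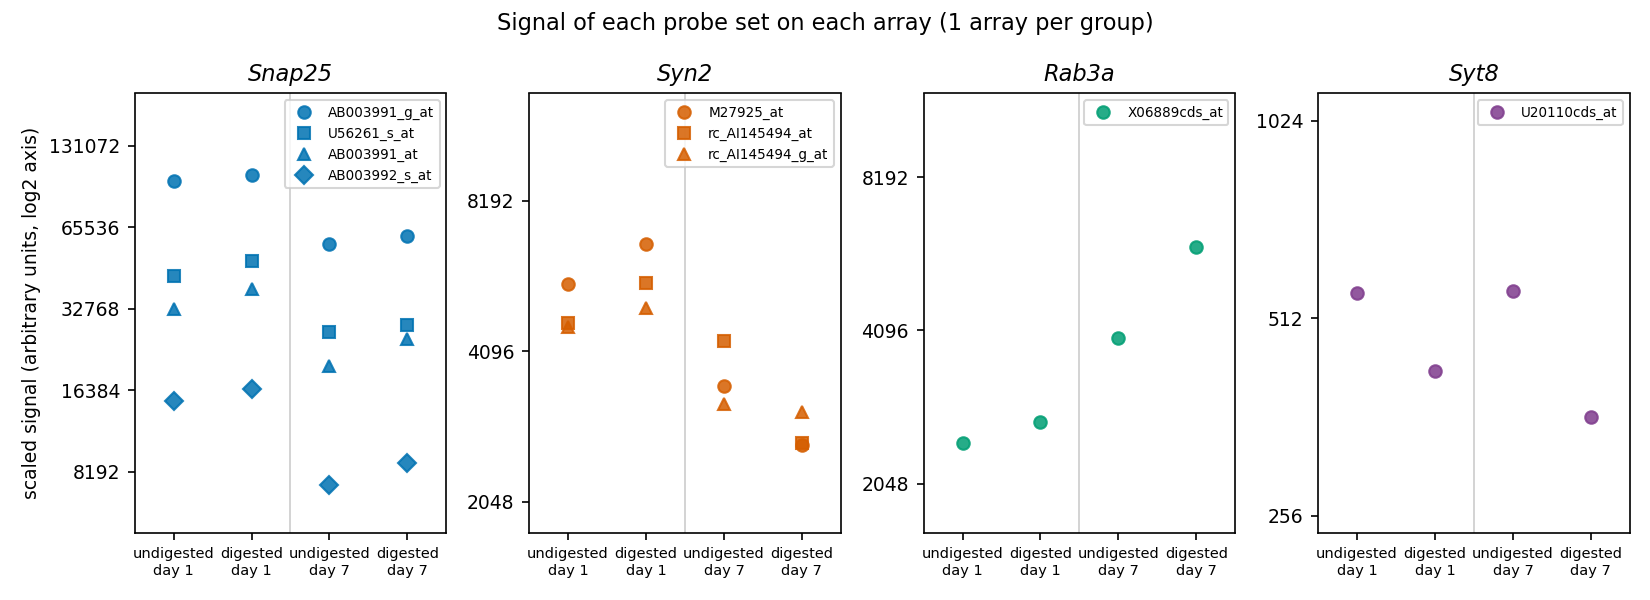
Scaled signal of each probe set (vertical axis, arbitrary units, log2 scale, with a range of its own in each panel) on the undigested and digested arrays of day 1 and day 7 (horizontal axis); each point is 1 array and each marker shape 1 probe set. All Snap25 and Syn2 markers sit lower at day 7 than at day 1, the Rab3a signal goes from 2459 and 2707 to 3962 and 5978, and Syt8 is lower on both digested arrays.

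Syn2 was also lower at day 7 by all 3 of its probe sets, and by more in the digested samples. M27925_at had signals of 5590 in the undigested and 6706 in the digested sample at day 1, and of 3492 and 2666 at day 7. It was 1.60-fold lower at day 7 in undigested samples and 2.52-fold lower in digested samples. rc_AI145494_at read 4664 and 5617 at day 1 and 4288 and 2689 at day 7, so that its undigested samples were only 1.09-fold apart while its digested samples were 2.09-fold apart. rc_AI145494_g_at read 4577 and 5006 at day 1 and 3210 and 3091 at day 7. For each Syn2 probe set both day 7 signals lay below both day 1 signals, though by a narrow margin for rc_AI145494_at in undigested samples. Lower at day 7 in both states, a looser criterion, were 24.4% of all 632.

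The Syn2 probe sets spread more than those of Snap25. Their mean log2 day difference was -0.44 ± 0.29 (SD over 3 probe sets) in undigested samples and -1.03 ± 0.32 in digested samples, where the mean was 2.04-fold lower. The digested minus the undigested day difference was -0.65 for M27925_at, -0.94 for rc_AI145494_at and -0.18 for rc_AI145494_g_at. This value takes up every array, which leaves nothing to test it with. By digestion, the Syn2 probe sets were on average 1.16-fold higher in the digested sample at day 1 (log2 0.22 ± 0.08) and 1.29-fold lower at day 7 (log2 -0.37 ± 0.31). At both days the sign for rc_AI145494_g_at (0.13 and -0.05) depended on the scaling, falling to -0.02 under cyclic loess at day 1 and reaching 0.09 in the values as deposited at day 7.

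Rab3a differed between the days in the other direction. Its probe set X06889cds_at had signals of 2459 in the undigested and 2707 in the digested sample at day 1, and of 3962 and 5978 at day 7. Both day 7 signals lay above both day 1 signals, and the digested day 7 sample was the highest. Higher at day 7 in both states, a looser criterion, were 37.2% of all 632. Rab3a was 1.61-fold higher at day 7 in undigested samples (log2 0.69) and 2.21-fold higher in digested samples (log2 1.14). Digested and undigested samples were 1.10-fold apart at day 1, a difference that turned negative after quantile normalisation (-0.02) and cyclic loess (-0.01), and 1.51-fold apart at day 7 (log2 0.59), higher in the digested sample.

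Of the 4 genes, only Syt8 had signals that ordered by digestion instead of by day. U20110cds_at read 558 in the undigested and 425 in the digested sample at day 1, and 563 and 362 at day 7. The digested signals lay below both undigested ones, by 1.31-fold at day 1 (log2 -0.39) and 1.56-fold at day 7 (log2 -0.64). Lower in the digested sample at both days, a looser criterion, were 15.2% of all 632. The undigested samples of the days were 1.01-fold apart, with a log2 difference of 0.01 that became -0.22 in the values as deposited, and the digested samples had a log2 difference of -0.23.

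**Figure D2:**
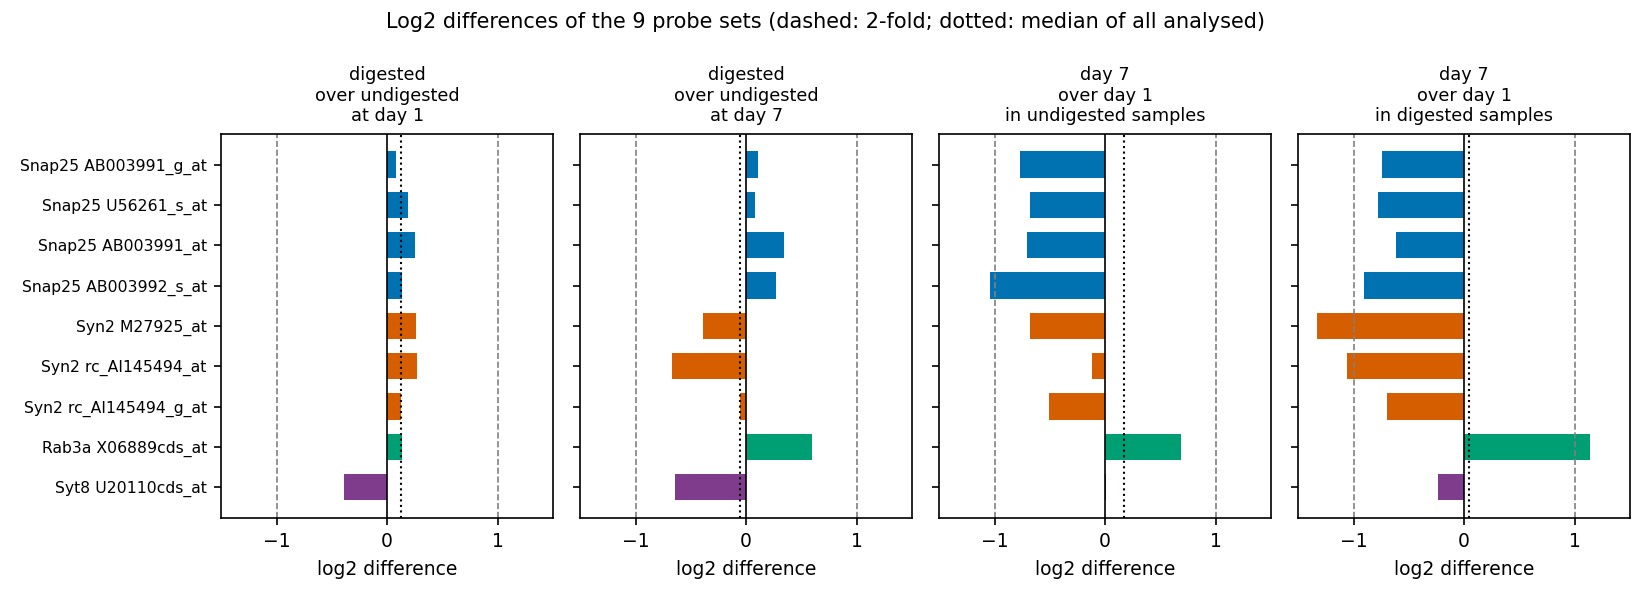
Log2 difference (horizontal axis) of each of the 9 probe sets (vertical axis) in the 4 comparisons, 1 panel each; bars are coloured by gene, dashed lines mark 2-fold and the dotted line the median of the 632 analysed probe sets. At day 7 over day 1 the Snap25 and Syn2 bars point down and the Rab3a bar up in both states, while for digestion no bar reaches 2-fold.

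The 9 probe sets were then read against all 632. For digestion, 0 of the 9 were at least 2-fold apart at day 1, where 3.48% of the 632 were, and 0 of the 9 at day 7, where 11.2% were. Their median log2 digestion difference was 0.14 at day 1 and 0.09 at day 7, beside 0.12 and -0.05 for all. For day 7 over day 1, 1 of the 9 was at least 2-fold apart in undigested samples, AB003992_s_at of Snap25, where 13.1% of all were, and 5.85% in the lower direction. In digested samples 3 of the 9 were, a pair of Syn2 probe sets lower and Rab3a higher, where 8.07% of all were and 4.75% were lower. The median day difference of the 9 was -0.68 in undigested and -0.74 in digested samples, beside 0.17 and 0.04 for all 632.

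The day differences of Snap25, Syn2 and Rab3a had the same direction in both states, with 7 of the 9 probe sets lower in both and 1 higher. Of all 632, 24.4% were lower in both states and 37.2% higher. At a threshold of 1.5-fold, 5 of the 9 probe sets were lower at day 7 in undigested and in digested samples, the 4 of Snap25 and M27925_at of Syn2, and 4.43% of all analysed probe sets were. Rab3a was higher by at least 1.5-fold in both, as were 4.75% of all. At 2-fold, 0 of the 9 passed in both states, where 0.949% of all were lower and 0.791% higher. After quantile normalisation AB003992_s_at passed in both, with log2 differences of -1.19 and -1.03. Since 4 of these 5 probe sets belong to 1 gene, the count is of probe sets and not of independent transcripts.

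An additive limma fit of digestion and day to all 4 arrays, with 1 residual degree of freedom, gave the only test. Sample spread and any interaction of digestion with day enter its error together, and the error is moderated by a spread pooled over the analysed probe sets. For the day, the fit put Syn2 M27925_at at a log2 of -1.0 ± 0.32 (SE, adjusted p = 0.248), Snap25 AB003992_s_at at -0.97 ± 0.31 (adjusted p = 0.248) and Rab3a at 0.92 ± 0.31 (adjusted p = 0.257). None of the 9 had an adjusted p under 0.05, and 0.158% of the 632 did. Of the 9, 5 had an unadjusted p under 0.05, beside 14.4% of all. With a spread that is allowed to depend on the signal (limma's trend), 5 of the 9 had an adjusted p under 0.05, as did 7.12% of all. These were M27925_at and AB003992_s_at (both 0.008), Rab3a (0.017), AB003991_g_at (0.039) and U56261_s_at (0.047). So the call for the day rests on how the error is estimated. For digestion the fit called 0% of the 632 by limma's adjusted p, 6.65% had an unadjusted p under 0.05, and 0 of the 9 did; the lowest adjusted p among them was 0.950, for Syt8 (log2 -0.52 ± 0.31).

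**Figure D3:**
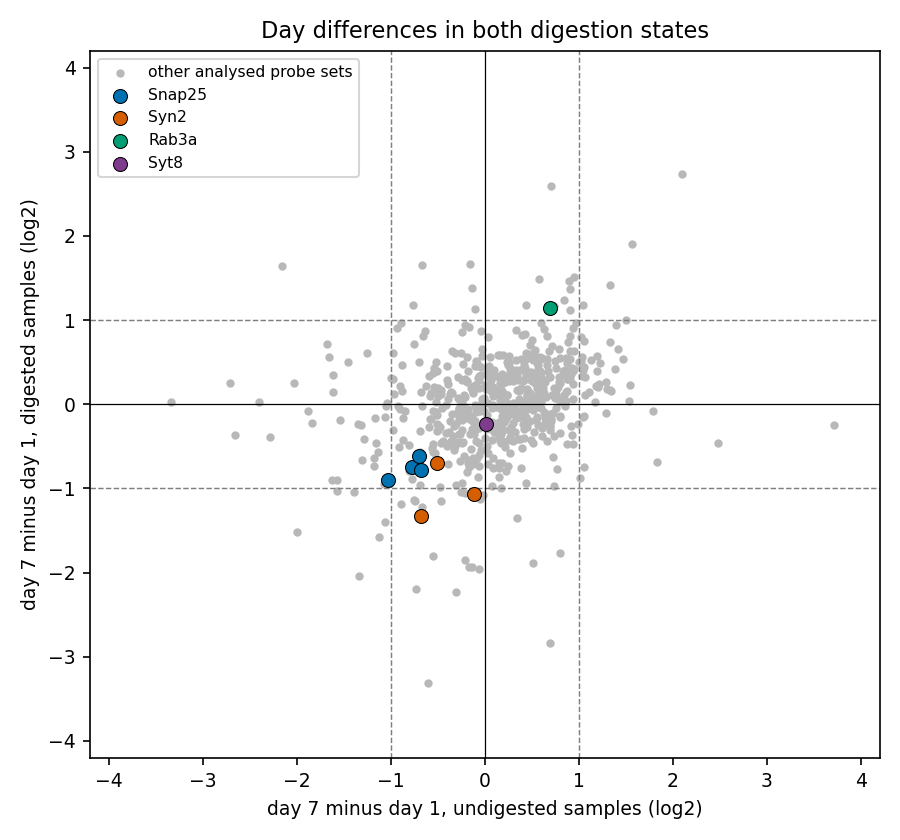
Log2 difference of day 7 over day 1 in undigested samples (horizontal axis) and digested samples (vertical axis), 1 point per probe set, over the 632 analysed probe sets in grey and the 9 in colour; values at the floor are plotted at the floor, and dashed lines mark 2-fold. All 4 Snap25 and 3 Syn2 points lie at the lower left, Rab3a at the upper right, and Syt8 near the centre.

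Promoter sequences are shown for Syn2 and Rab3a, the genes that were at least 2-fold apart between the days in digested samples and in opposite directions. They are the 250 bases before the annotated start in RefSeq (build GRCr8), at chr4:149858669-149858918 on the plus strand for Syn2 and at chr16:18722274-18722523 on the minus strand for Rab3a. The table used held entries for 3 of the 4 genes, with none for Snap25. Capitals mark the GC box GGGCGG and TGACG, the core of the cAMP response element, each searched on both strands, with no overlap between the motifs found.
Syn2: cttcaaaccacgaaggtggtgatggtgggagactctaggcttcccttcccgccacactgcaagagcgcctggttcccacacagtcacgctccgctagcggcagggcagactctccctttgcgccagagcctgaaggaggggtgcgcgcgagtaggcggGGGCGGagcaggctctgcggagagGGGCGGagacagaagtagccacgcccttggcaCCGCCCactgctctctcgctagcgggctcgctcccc
Rab3a: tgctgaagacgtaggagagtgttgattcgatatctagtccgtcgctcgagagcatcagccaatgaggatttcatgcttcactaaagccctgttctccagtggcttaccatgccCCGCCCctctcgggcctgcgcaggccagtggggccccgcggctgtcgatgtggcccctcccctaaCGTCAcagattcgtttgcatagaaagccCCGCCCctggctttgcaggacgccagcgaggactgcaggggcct
The Syn2 window held 3 GC boxes and the Rab3a window 2, a motif present in 30.5% of the 33469 windows of this length in the table. The Rab3a window also held 1 TGACG, on the reverse strand at 72 to 68 bases before the start, a motif found in 18.2% of windows, and 1 CCAAT, found in 34.0%. Neither window held TATAAA (12.9% of windows) or the full element TGACGTCA (1.59%). The Syt8 window held none of these motifs. The share of G and C was 66.8% for Syn2, 60.4% for Rab3a and 57.6% for Syt8, beside a median of 51.2% over all windows. A match in letters is a description and shows no binding.

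Other genes of the release machinery were counted by the brightest probe set of each. Over the 6 lists, 3 of 35 analysed genes were at least 2-fold apart between the days in undigested and 2 of 35 in digested samples, beside 13.5% and 8.55% of all 386 analysed genes. Of the SNARE, priming and docking genes listed, 11 were on the array and 10 were analysed, of which 0 were at least 2-fold apart in any of the 4 comparisons, under any of the 4 scalings. Their median day difference was 0.14 in undigested and -0.02 in digested samples, beside 0.19 and 0.05 over all 386. Stx1a, the gene of syntaxin 1A, the partner of SNAP-25 in fusion, had signals of 2974 and 3553 in the undigested and digested samples at day 1 and of 2551 and 2312 at day 7. It was 1.17-fold lower at day 7 in undigested and 1.54-fold lower in digested samples. Stx3, another syntaxin gene, had a log2 day difference of 0.24 in undigested and -0.73 in digested samples, Stx7 -0.12 and 0.20, and the Munc18 family gene Stxbp2 0.45 and 0.06. The dimmer Stxbp2 probe set, U20283_at, had 0.88 and 0.29. Snap23, the more widely expressed relative of Snap25, read 365 and 325 at day 1 and 301 and 312 at day 7, and was singled out after its values were seen.

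Of the synaptotagmins and small GTPases other than Syt8 and Rab3a, 10 were on the array and 6 were analysed, and 0 of the 6 were at least 2-fold apart in any comparison. Rab4a, a GTPase gene of endosome recycling, was higher at day 7 in both states, by 1.58-fold and 1.39-fold, from signals of 640 and 982 to 1013 and 1363. Syt9 had log2 day differences of 0.23 and 0.10, Syt5 -0.06 and -0.46 and Syt11 -0.33 and -0.26 in undigested and digested samples. For digestion, 6 of the 6 read higher in the digested sample at day 1, by a median log2 of 0.19 beside 0.10 for all genes. Of all 632 probe sets, 450 read higher there too. Under the other scalings 4 or 5 of the 6 did, whereas Syt8 read lower under each. At day 7, 3 of the 6 read higher in the digested sample, beside 281 of all 632.

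Of the vesicle membrane, synapsin and recycling genes, 11 were on the array and 7 were analysed, again with 0 at least 2-fold apart in any comparison by the brightest probe set. A second probe set of Syngr1, U39549_g_at, was higher in the digested sample at day 7 by a log2 of 1.06. This difference was 0.41 by the brightest Syngr1 probe set and 0.19 by U39549_at. Syn1, which codes for synapsin I, did not have the day differences of Syn2. It was 1.54-fold higher at day 7 in undigested samples and had a log2 difference of -0.09 in digested samples. Its signals were 1024 undigested and 1167 digested at day 1, and 1581 and 1097 at day 7. Sv2a, a vesicle glycoprotein gene, had log2 day differences of 0.17 and -0.35, and Sncb, the gene of beta-synuclein, 0.40 and -0.24. Syngr1, the gene of a vesicle protein, had -0.11 and 0.45 by its brightest probe set. It had -0.24 and 0.86 by U39549_g_at, and -0.22 and -0.10 by U39549_at. Syp, the gene of the abundant vesicle protein synaptophysin, was singled out after its values were seen, with signals of 46543 and 50771 at day 1 and 62107 and 49708 at day 7. Its day differences were 0.42 and -0.03, where the Snap25 means were -0.80 and -0.76.

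**Figure D4:**
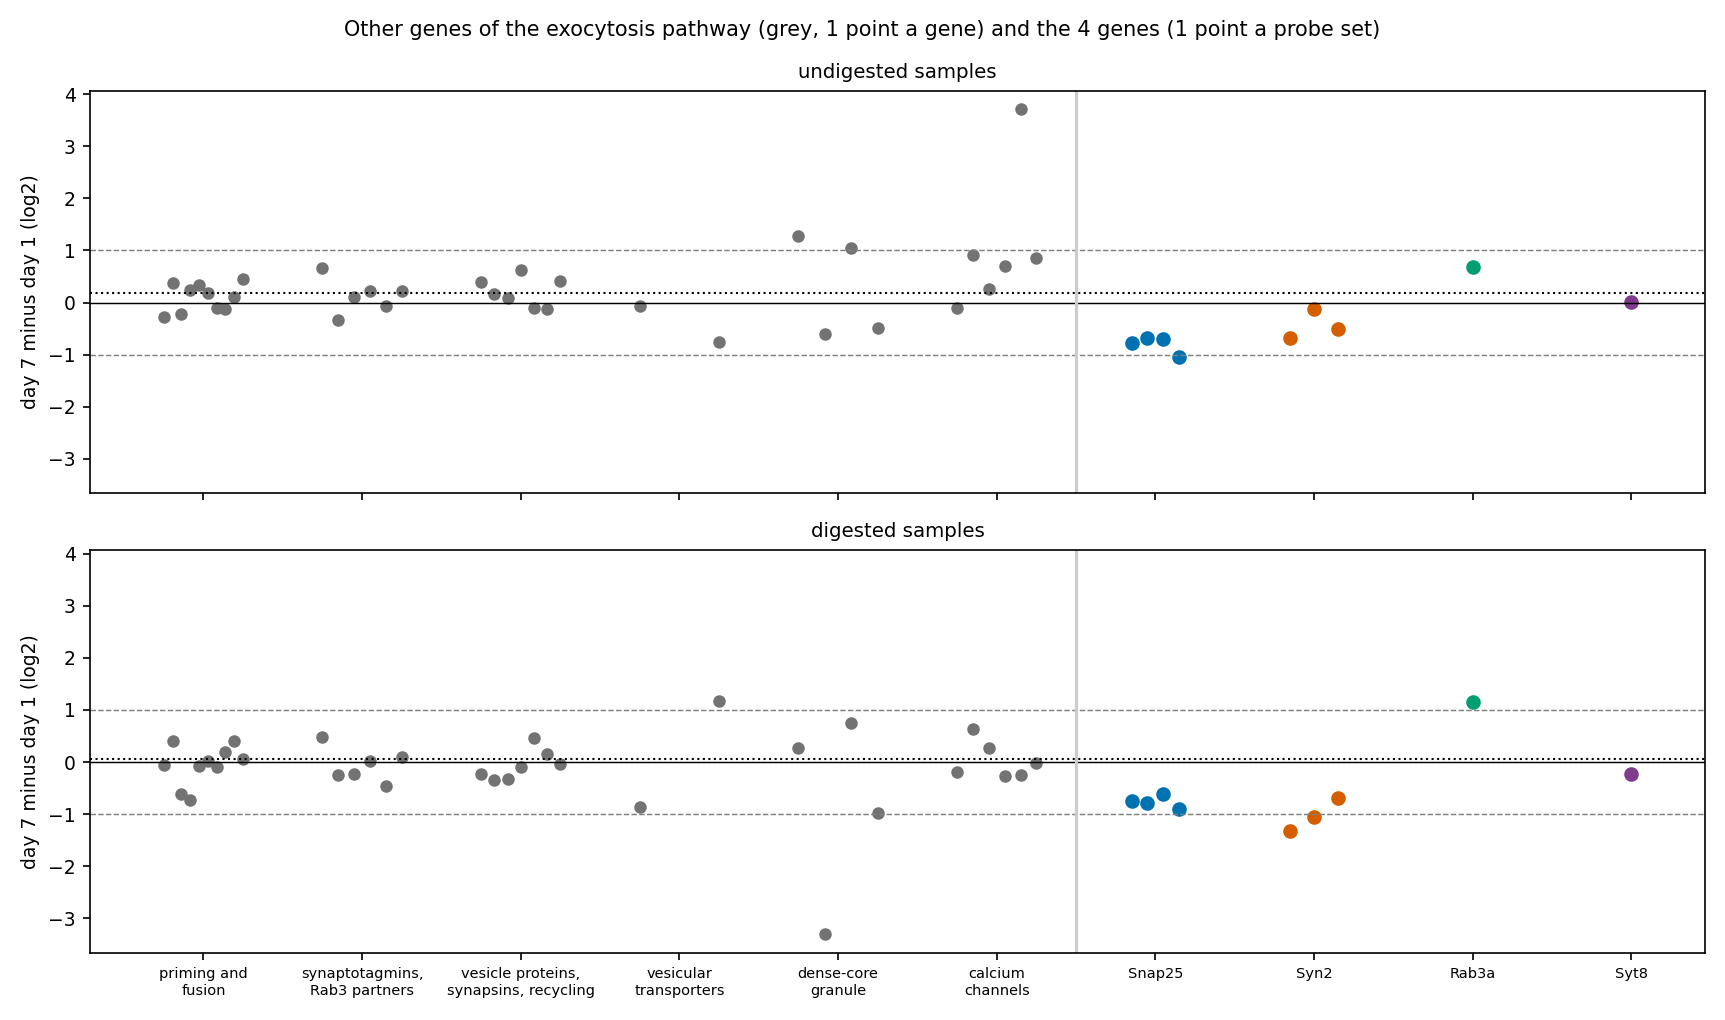
Log2 difference of day 7 over day 1 (vertical axis) in undigested samples (upper panel) and digested samples (lower panel) for the analysed genes of the 6 pathway lists (grey, 1 point per gene by its brightest probe set) and for each probe set of Snap25, Syn2, Rab3a and Syt8 (colour). Dashed lines mark 2-fold and the dotted line the median of 386 analysed genes; all grey points of the first 3 lists lie between the dashed lines, and in undigested samples all Snap25 points lie lower than every grey point of those lists.

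Some cargo and calcium entry genes passed 2-fold between the days. Of 4 analysed genes of dense-core granules, Dbh, the enzyme that makes noradrenaline, was 2.44-fold higher at day 7 in undigested and 1.20-fold higher in digested samples, and Penk, the enkephalin precursor, 2.08-fold and 1.69-fold higher, which came under 2-fold in undigested samples under the other scalings. Vgf, a granule protein gene, was 1.39-fold and 1.97-fold lower. Npy, the gene of neuropeptide Y, had log2 differences of -0.61 and -3.31, the second resting on a signal of 58.2 near the floor of 51.8. Of the vesicular transporters, Slc18a3, for acetylcholine, had log2 differences of -0.07 and -0.86 by its brighter probe set and -0.51 and -0.13 by the other. Slc32a1, for GABA, had -0.76 and 1.17 by its brighter probe set, with signals of 245 and 197 at day 1 and 145 and 445 at day 7. Its other probe set, AF030253_at, read 62.2 and 47.8 at day 1 and 50.7 and 48.2 at day 7, near or at the floor of 51.8. Of 6 analysed calcium channel subunit genes, 5 were higher at day 7 in undigested and 2 in digested samples (3 in the values as deposited). Of all 632 probe sets, 377 were higher at day 7 in undigested and 336 in digested samples. Cacna1b, the N-type channel gene of nerve terminals, was 1.87-fold and 1.55-fold higher by its brighter probe set, while its other probe set had log2 differences of 0.06 and 0.36. Cacnb3 had log2 differences of 0.85 and -0.02 and Cacna2d1 0.69 and -0.27. Cacnb1 had 3.72 and -0.25, from an undigested day 1 signal of 64.1 near the floor.

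Marker genes of cell types were read beside these differences. Of 17 neuronal markers listed, 11 were on the array and 9 were analysed. Their summed signal was 108195 and 118644 in the undigested and digested samples at day 1 and 131791 and 81982 at day 7, with 0 of the 11 at a signal of 0 and Gad1 and Camk2a below the filter. It was higher at day 7 in undigested samples, where Snap25 and Syn2 were lower, and lower at day 7 in digested samples. After quantile normalisation the undigested sums were level, at 120353 and 120073. By gene, 3 of the 9 were lower at day 7 in undigested samples (4 under each of the other scalings), beside 40.3% of all 632 probe sets. In digested samples 7 of the 9 were lower, beside 46.8%. Of these, Gap43, an axon growth gene, had signals of 407 and 435 at day 1 and of 102 and 152 at day 7, and Nefm, a neurofilament gene, had log2 differences of -0.10 and -1.04, the second under 2-fold after cyclic loess. The 5 chromaffin cell markers on the array, of 12 listed, summed to 270424 and 288206 at day 1 and 351949 and 237332 at day 7, mostly from Th. After quantile normalisation the digested sums were 273447 at day 1 and 297056 at day 7. By gene, 3 of the 4 analysed were higher at day 7 in digested samples, and Th was lower (log2 -0.51). In undigested samples 4 of the 4 were higher (3 under each of the other scalings). Of all 632 probe sets, 336 were higher in digested and 377 in undigested samples. The 9 glial markers on the array, of 15 listed, summed to 9610 and 9836 at day 1 and 6622 and 6414 at day 7. Glul was the largest of them on 3 arrays, with 6550 and 6904 at day 1 and 2499 and 3356 at day 7, and Cnp, with 1612 and 1832 and then 2668 and 1703, was the largest on the undigested day 7 array. The part of these cell types in the day differences was not tested. The beta-actin ratios were 1.42 and 2.66 at day 1 and day 7 in the undigested pair and 1.48 and 1.35 in the digested pair, and the part of RNA quality and of the low hybridisation controls was not tested.

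Genes with the profile most like each of the 4 were found over the 4 arrays from the root mean square difference of centred log2 values, among 381 other genes. With 4 arrays such likeness is a description. Each gene was read by its brightest probe set. Closest to Snap25 were Arrb2, which codes for a beta-arrestin (0.03), Tfrc, the transferrin receptor gene (0.05), and the small heat shock protein gene Hspb1 (0.07). Other Arrb2 probe sets did not share this profile. Their log2 day differences in undigested and digested samples were -0.09 and -0.30 (M91590_at) and 0.35 and 0.02 (M91590_g_at). They were -0.12 and -0.71 for rc_AA964003_s_at and -0.57 and -0.18 for rc_AI136065_s_at. Hspb1 read 31742 and 30739 at day 1 and 18128 and 17715 at day 7. Closest to Syn2, by M27925_at, were the potassium channel gene Kcnj14 (0.04), the kinase gene Camk4 (0.12) and Msmo1, a gene of cholesterol synthesis (0.13). Closest to Rab3a were the metallothionein gene Mt2A (0.05), the neuropeptide Y receptor gene Npy1r (0.09) and Nrxn2, which codes for a neurexin of presynaptic membranes (0.10). Mt2A read 3014 and 3145 at day 1 and 5012 and 7092 at day 7. Closest to Syt8 were Hspb2 (0.07), Nes, the gene of the filament protein nestin (0.07), and the somatostatin receptor gene Sstr4 (0.11), and Nes read 555 and 409 at day 1 and 584 and 398 at day 7. As for Syt8, both digested signals of Nes lay below both undigested ones.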

How the data were processed

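Total RNA of 4 rat samples was read on 4 single-channel arrays, 1 per group. The authors deposited linear signal intensity per probe set, with the method and any scaling not given in the sources used here. Gene names came from the platform's probe table. The 59 control probe sets were left out, leaving 1263. Arrays were multiplied by 0.925 (undigested) and 1.01 (digested) at day 1 and by 1.09 and 0.984 at day 7 to share 1 median, values under the 20th percentile were set to it, and log2 was taken; 632 probe sets at or above the median mean signal of 229 were analysed. With 1 array per group the comparisons are sizes, counted at 2-fold and never with a value at the floor. The small number of arrays limits the precision. The additive fit used limma 3.58.1 in R 4.3.3 with Benjamini-Hochberg adjustment over the 632. It was also run on simulated data with the same spread for all probe sets and no interaction of digestion with day. That run cannot show how the fit behaves where the spread varies or an interaction is present. Other steps used Python 3.11.15, numpy 2.4.6, pandas 2.3.3 and matplotlib 3.10.9.

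The 4 genes, the pathway and marker lists and the tests were chosen with earlier results of these data known. The promoter motifs were chosen with the sequences and values in view. Pathway genes named were up to 4 per list with the largest absolute difference and no value at the floor, by the brightest probe set; like genes were the closest 3. Alternatives were the values as deposited, quantile normalisation, cyclic loess, no filter on dim probe sets, a floor at the 40th percentile, an added offset instead of a floor, thresholds of 1.5-fold and 3-fold, a mean over probe sets and a trend in the fit.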

Additional observations from a re-analysis of the deposited data

Results flagged for a closer look

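A pair of Syn2 probe sets differed by digestion in opposite directions at the days, and did so under the main scaling, in the values as deposited, after quantile normalisation and after cyclic loess. M27925_at had log2 differences for digested over undigested of 0.26 at day 1 and -0.39 at day 7, and rc_AI145494_at of 0.27 and -0.67. Whether the digestion difference itself changed between days was not tested, since each group held 1 array. The third Syn2 probe set had -0.05 at day 7. Of all 632 probe sets, 30.9% were higher in the digested sample at both days and 15.2% lower at both. Most thus held no single direction at both days, so such a change is not particular to Syn2.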

How the results depend on the processing

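The counts of the 9 probe sets at least 2-fold apart changed as follows. For day 7 over day 1 in undigested samples the count of 1 became 2 in the values as deposited and 2 under cyclic loess, where AB003991_g_at of Snap25 passed with log2 differences of -1.01 and -1.02. At a threshold of 1.5-fold it became 6, and at 3-fold 0. In digested samples the count of 3 became 4 after quantile normalisation, where AB003992_s_at passed at -1.03, 8 at 1.5-fold and 0 at 3-fold. For digestion at day 7 the count of 0 became 3 at 1.5-fold. The additive fit's count of 0 for the day became 5 with a trend in limma's error. Of the 232 other values of single probe sets and genes under an alternative, all 232 moved by less than the pooled SD between probe sets of a gene. The sign changed in 10 of 216, in 6 of the 36 differences, the largest of which had a log2 of 0.14. The 216 and the 232 include copies of the main value, which could not move. Dropping the filter changes no difference, and the 40th percentile floor, 162, lay below every signal of the 4 genes. In the values as deposited all 9 probe sets moved alike within a comparison, by an amount fixed by the scaling. For digestion this was -0.13 at day 1 and 0.14 at day 7, and for the day -0.23 in undigested and 0.04 in digested samples. Each lay below the pooled SD of its comparison, so these differences could not pass it either. For the undigested day difference, 46 of all analysed probe sets were at least 2-fold higher and 37 lower. As deposited these were 20 and 58, with quantile normalisation 29 and 51, and with cyclic loess 27 and 49. For digestion at day 1, 13 higher and 9 lower became 7 and 12 as deposited and 11 and 12 with either of the others, and at day 7, 43 and 28 became 52 and 20 as deposited. No paired analysis was possible because each group held 1 array. The arrays give no measure of the signal needed to stand above background.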
